A study of Mus musculus with 7 samples.

Results

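The loci of 8 mouse genes of the Hippo pathway were examined for open chromatin: Yap1, Wwtr1, Tead1, Tead2, Tead3, Tead4, Lats2 and Amotl2, out of 21887 protein-coding genes. A locus was the gene body with 50 kb on either side in the mouse assembly GRCm38, and every listed ATAC-seq peak lying in it was a member. ATAC-seq maps DNA that a transposase can reach, and a peak marks a stretch where such cuts pile up. Merged over all 7 libraries, the 8 loci held 195 of 130788 regions with a peak.

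The libraries came from mice and fall into 5 groups. First-arch ectoderm, the sheet of embryonic tissue that covers the future jaws, was peeled off at embryonic day 11.5 after Dispase II treatment and gave 2 libraries. Sox2-positive cells gave 2 more: they were sorted for GFP from the labial cervical loop of the lower incisor at postnatal day 2, in a line whose GFP reads out the endogenous Sox2 promoter. In the labels these are dental epithelial stem cells. At postnatal day 2, 1 library each, with no replicate, came from the entire lower incisor, lower first molar and upper first molar. No group carries a drug treatment or an induced mutation per the labels, which do not state the strain, or whether the ectoderm and whole teeth came from the GFP line. The labels also do not say whether replicates came from separate animals, so the spread between them may be technical.

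The Hippo pathway is a kinase cascade that restrains tissue growth. Its kinases LATS1 and LATS2 phosphorylate the coactivators YAP (Yap1) and TAZ (Wwtr1) and keep them out of the nucleus. When that brake is off, YAP and TAZ bind the TEAD DNA-binding proteins and switch on genes, among them Lats2 and Amotl2, whose products restrain YAP and TAZ in turn. In the mouse incisor, which grows throughout life, the cervical loop keeps renewing the tooth epithelium, and YAP and TAZ are known to support its growth.

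The core of the DNA sequence that TEAD proteins bind is GGAATG, or CATTCC on the other strand. In the 250 bp before the gene starts that RefSeq gives on GRCm38.p6, 4 of the 6 members with an entry held it (Yap1, Wwtr1, Tead3 and Amotl2), against 14.4% of 27025 genes. Those 27025 genes are not limited to the 21887 protein-coding ones used elsewhere, and they were not matched to the members in base content. Some members have several starts. By promoter, 6 of 10 member windows held the core, against 12.6% of 32851. Both Wwtr1 windows count the same match, which lies 136 and 170 bp before their starts, so the windows are not independent. The matches are shown because they lie in promoters that were open in every library. They read 5′ to 3′ on the strand of the gene, with the GGAATG or CATTCC match in capitals.
Yap1: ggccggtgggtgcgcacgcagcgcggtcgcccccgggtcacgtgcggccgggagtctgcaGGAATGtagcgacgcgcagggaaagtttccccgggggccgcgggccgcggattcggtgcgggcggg
Wwtr1: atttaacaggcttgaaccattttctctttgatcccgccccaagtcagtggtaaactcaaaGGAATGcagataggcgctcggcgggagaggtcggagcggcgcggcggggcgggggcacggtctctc
Tead3: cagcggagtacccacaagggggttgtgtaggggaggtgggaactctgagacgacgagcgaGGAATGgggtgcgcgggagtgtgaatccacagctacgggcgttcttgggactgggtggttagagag
Tead3, second start: ccgggctCATTCCgtaCATTCCggccatc
Amotl2: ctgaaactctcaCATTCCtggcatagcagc

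The Yap1 stretch is chr9:8004672-8004797 on the minus strand, with its match 141 bp before the start. The Wwtr1 stretch is chr3:57575981-57576106, also on the minus strand, with the match 136 bp before the upstream one of 2 starts. The first Tead3 stretch is chr17:28350922-28351047 on the minus strand, with a match 182 bp before the outermost start. The second is chr17:28350702-28350730, where matches lie 123 and 114 bp before an inner start. The Amotl2 stretch is chr9:102717727-102717756 on the plus strand, 65 bp before the start, and lies within the gene model. All 7 libraries had peaks covering 100% of the 250 bp windows that hold these matches. Other motifs were read in the same windows on both strands. The GC box GGGCGG was present in 6 of 6 members against 35.4% of genes, the AP-1 core TGANTCA in 0 of 6 against 7.82%, and the SOX core ACAANG in 3 of 6 (Tead2, Tead3 and Amotl2) against 39.9%. A match is a string of letters in this window and not a measured binding site. Tead1 and Tead4 had no promoter entry, so the 2 ends of their gene bodies served in place of a start, and the end with peaks in all 7 libraries was taken.

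The lists differ in length, which bears on every count below. Ectoderm replicates 1 and 2 listed 82461 and 50792 peaks, Sox2-positive replicates 1 and 2 listed 42606 and 39017, incisor 63040, lower molar 70000 and upper molar 68307. The lists hold no reads, so sequencing depth is unknown. Each comparison is therefore given on the full lists and on equal lists of the 38000 autosomal peaks with the smallest p-value in each library. In gene-start peaks of the full lists, 9 of 10 epithelial marker genes were open in each library except incisor (8), with Trp63 lacking a start peak throughout. In the equal lists these markers were open at 9 in the 4 ectoderm and Sox2-positive libraries, 8 in each molar and 6 in incisor. Mesenchymal markers were open in the full lists at 7 and 8 of 10 in ectoderm, 9 in each Sox2-positive library, 9 in incisor and lower molar and 10 in upper molar. In the equal lists they were open at 6 and 8 in ectoderm, 9 in each Sox2-positive library and incisor, and 8 in each molar. The part of these markers in the results was not tested. Of 5 blood markers, 2 (Spi1 and Coro1a) had a start peak in every library and Ptprc, Cd52 and Laptm5 in none, on both kinds of list. Of 5 endothelial markers, 1 to 3 had one in the full lists and 0 to 2 in the equal lists. Sox2 had a start peak in all 7 full lists, and in the equal lists in the 4 ectoderm and Sox2-positive libraries but in no whole tooth. In bulk tissue, fewer cells of a type and less accessible DNA per cell cannot be told apart.

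All 8 members had a peak at the gene start in all 7 libraries, against 55.7% of autosomal protein-coding genes. Only 6 of them had a listed start. For Tead1 and Tead4 either gene end could count, as for every gene without a listed start in the 55.7%. The other Tead1 end had a peak in ectoderm replicate 1 and incisor alone, and the other Tead4 end had none in ectoderm replicate 2. In the equal lists 7 of 8 did so, against 51.4%, the exception being Tead2 in the lower molar. Start peaks were placed on a common footing by their rank, the percent of peaks in the same equal list with a lower signal, where signal is the authors' area under the significance curve of a peak.

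The coactivators had high-ranking start peaks in every library. For Yap1 (chr9:7931999-8004638, minus strand) the start peak ranked above 91.9% and 94.2% of the list in ectoderm, 96.3% and 92.7% in the Sox2-positive cells, 94.6% in incisor, 95.2% in lower molar and 95.1% in upper molar. For Wwtr1 (chr3:57455644-57575910, minus strand) these ranks were 95.7% and 96.9% in ectoderm, 98.3% and 96.6% in Sox2-positive cells, and 97.3% to 98.1% in the teeth. The ectoderm and Sox2-positive libraries overlapped for both genes. The 7 Yap1 start peaks were 1685 to 2086 bp wide and the 7 Wwtr1 peaks 1941 to 2443 bp.

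Among the TEAD genes, Tead3 had the highest-ranking start peak in all 7 libraries, and Tead2 the lowest in all but ectoderm replicate 2. The Tead3 peak (gene at chr17:28331671-28350805, minus strand) ranked between 97.9% and 99.7% in all 7 libraries and was 2590 to 4248 bp wide. Tead1 (chr7:112679356-112906784) ranked 83.4% and 75.3% in ectoderm, 83.3% and 87.5% in Sox2-positive cells, and 88.4% to 90.1% in the teeth, so the replicated groups overlapped. Tead4 (chr6:128227143-128300813) ranked 95.3% and 94% in ectoderm, 53.4% and 73.7% in the Sox2-positive cells, 77.5% in incisor, 88.5% in lower molar and 85.6% in upper molar. Both ectoderm libraries thus lay above the other 5. The Tead4 start peak was 1670 and 1805 bp wide in ectoderm and 514 and 1089 bp in Sox2-positive cells. Tead2 (chr7:45215792-45233468, plus strand) ranked 74.2% and 77.9% in ectoderm against 44.3% and 66.4% in Sox2-positive cells. It ranked 51.2% in incisor and 36.1% in upper molar and was not in the equal list of the lower molar. In Sox2-positive replicate 1 the Tead2 peak began inside the gene at 45216576 and did not reach the start itself.

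The regulators differed in level. Amotl2 (chr9:102717091-102733418, plus strand), which encodes an angiomotin-like protein that holds YAP in the cytoplasm, ranked 97.1% and 97.8% in ectoderm and 96% in each Sox2-positive library, with 93.5% to 97.2% in the teeth. Lats2 (chr14:57689662-57746212, minus strand), the kinase, ranked lower, at 64.6% and 71.5% in ectoderm, 60.9% and 67.4% in the Sox2-positive cells, 76.4% in incisor, 70.7% in lower molar and 54.6% in upper molar. A second listed Lats2 start, at 57734418, had no peak over it in any library.

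Both ectoderm start peaks ranked above both Sox2-positive ones for 3 of 8 members (Tead2, Tead4 and Amotl2), against 29.2% of the genes that could be ranked, and the reverse held for 0 of 8 members against 30.3%. The mean rank difference was 20.7 percentage points for Tead2 (76.1% ± 2.59 in ectoderm, 55.3% ± 15.6 in Sox2-positive cells, SD, n = 2 each, exact permutation p = 0.33). It was 31.1 for Tead4 (94.7% ± 0.893 against 63.5% ± 14.4, SD, n = 2 each, exact permutation p = 0.33) and 1.5 for Amotl2. With 2 libraries against 2, a two-sided exact permutation test cannot go below 0.33, so no difference here or below can pass the usual threshold. Ranked by the deposited p-value in place of signal, Tead4 alone kept both ectoderm libraries on top (92.8% and 89.4% against 61.3% and 68.6%), and Wwtr1 and Tead1 ranked higher in both Sox2-positive libraries. By p-value Tead2 overlapped, at 59.6% and 76.5% against 53.8% and 63.7%, and so did Amotl2. By signal but without Sox2-positive replicate 2, the members ranked higher in ectoderm numbered 5 in place of 3. No share over all genes was taken for these alternative rankings, so their counts are not set against a background.

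**Figure D1:**
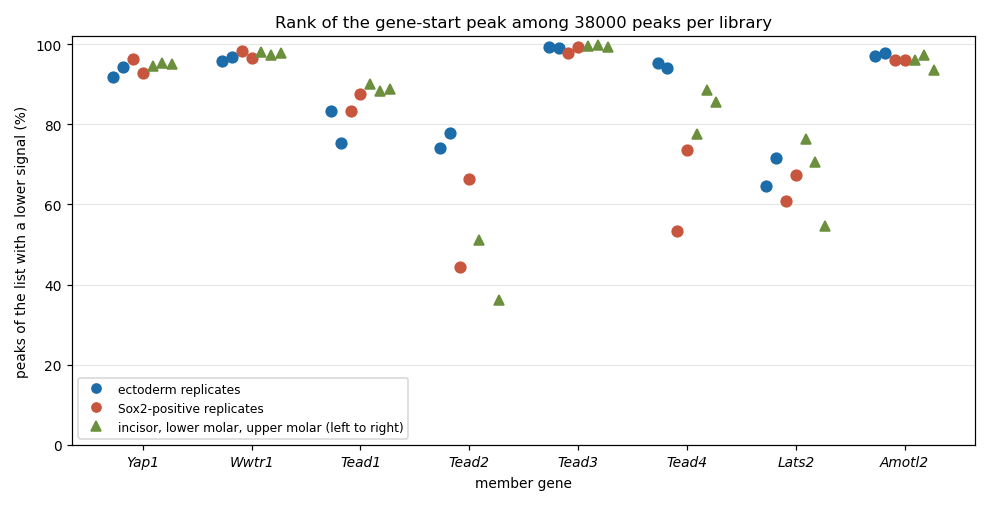
Rank of the gene-start peak of each member in each library, as the percent of the 38000 peaks of that list with a lower signal (vertical axis); circles are ectoderm and Sox2-positive replicates and triangles the 3 whole teeth. Tead4 sits at 95.3% and 94% in ectoderm and at 53.4% and 73.7% in Sox2-positive cells, while Tead3 sits at 97.9% or above throughout.

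On the full lists the number of peaks per locus was lowest in Sox2-positive cells, whose lists were also the shortest, and at equal length it was lowest in the teeth. Over the 8 loci the full-list mean was 18.5 and 11.5 peaks in the ectoderm replicates, 9.12 and 8.12 in the Sox2-positive replicates, 12.8 in incisor, 13.2 in lower molar and 11.5 in upper molar. At equal length it was 9.5 and 9.25 in ectoderm, 8.38 and 8.12 in the Sox2-positive replicates, and 6.88, 7.12 and 7.62 in the teeth. On the full lists, 4 of 8 members (Tead1, Tead2, Tead3 and Amotl2) had more peaks in both ectoderm than in both Sox2-positive libraries, but so did 46.2% of genes, and the reverse was seen for 0 of 8 against 3.43%. With equal lists, 3 of 8 members (Tead1, Tead2 and Amotl2) had more in ectoderm, against 23.1%, and 2 of 8 (Wwtr1 and Tead4) had more in Sox2-positive cells, against 20.2%.

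Amotl2 had the largest ratio of the 8. Its locus held 25 and 16 peaks in ectoderm, 6 and 7 in the Sox2-positive cells, 11 in incisor, 11 in lower molar and 12 in upper molar, so both ectoderm libraries lay above the other 5. The means were 20.5 ± 6.36 and 6.5 ± 0.707 (SD, n = 2 each), a ratio of 3.15 (exact permutation p = 0.33). At equal length the locus held 13 and 11 peaks in ectoderm, 4 and 7 in Sox2-positive cells and 5 to 6 in the teeth, a ratio of 2.18. No other protein-coding gene lies within this locus. In the gene body alone the 2 groups were close on the full lists, with 6 and 5 peaks against 4 and 5. On the equal lists the order turned, with 2 in each ectoderm library against 3 and 5 in Sox2-positive cells. The ectoderm excess lay in the flanks, at 19 and 11 peaks against 2 in each. On the equal lists the flanks held 11 and 9 against 1 and 2.

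Tead1, the longest gene of the set at 227 kb, held 40 and 25 peaks in ectoderm, 16 and 17 in the Sox2-positive cells, 25 in incisor, 31 in lower molar and 26 in upper molar. The ratio of the means was 1.97, from 32.5 ± 10.6 and 16.5 ± 0.707 (SD, n = 2 each, exact permutation p = 0.33). At equal list length it was 1.36, with 24 and 21 peaks in ectoderm against 16 and 17, and the teeth lay at 16, 16 and 19. Tead2 held 12 and 10 peaks in ectoderm and 5 in each Sox2-positive library, with 6 to 8 in the teeth. With equal lists it held 8 in each ectoderm library, 4 and 5 in Sox2-positive cells and 3 to 5 in the teeth. The Tead2 locus holds 8 other protein-coding genes, so its flanking peaks cannot be tied to Tead2.

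Tead3 depended on list length. Its locus held 22 and 14 peaks in ectoderm, 11 in each Sox2-positive library, and 16, 13 and 12 in the teeth, but on the equal lists ectoderm held 10 and 12 and Sox2-positive cells again 11 in each. Tead4 also changed: 13 and 8 peaks in ectoderm overlapped 9 and 10 in Sox2-positive cells, whereas the equal lists held 6 in each ectoderm library, 9 and 10 in Sox2-positive cells, and 7, 8 and 7 in the teeth. The difference was then −3.5 peaks (6 ± 0 against 9.5 ± 0.707, SD, n = 2 each, exact permutation p = 0.33). The Tead4 start peak thus ranked higher in ectoderm, while its locus held fewer of the equal-list peaks there.

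For Wwtr1 the full lists gave 13 and 4 peaks in ectoderm and 7 and 5 in Sox2-positive cells, which overlap, with 8, 7 and 5 in the teeth. On the equal lists each ectoderm library held 3, Sox2-positive cells 7 and 5, and the teeth 4, 5 and 5 (exact permutation p = 0.33). Yap1 held 17 and 10 peaks in ectoderm, 10 and 6 in Sox2-positive cells and 11, 11 and 10 in the teeth, and overlapped between the replicated groups on both kinds of list. Lats2 held 6 and 5 in ectoderm and 9 and 4 in Sox2-positive cells, which overlap. The teeth held more Lats2 peaks, at 11, 11 and 10, but on the equal lists the teeth (5, 6 and 6) lay within the range of the other libraries (4 to 7).

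**Figure D2:**
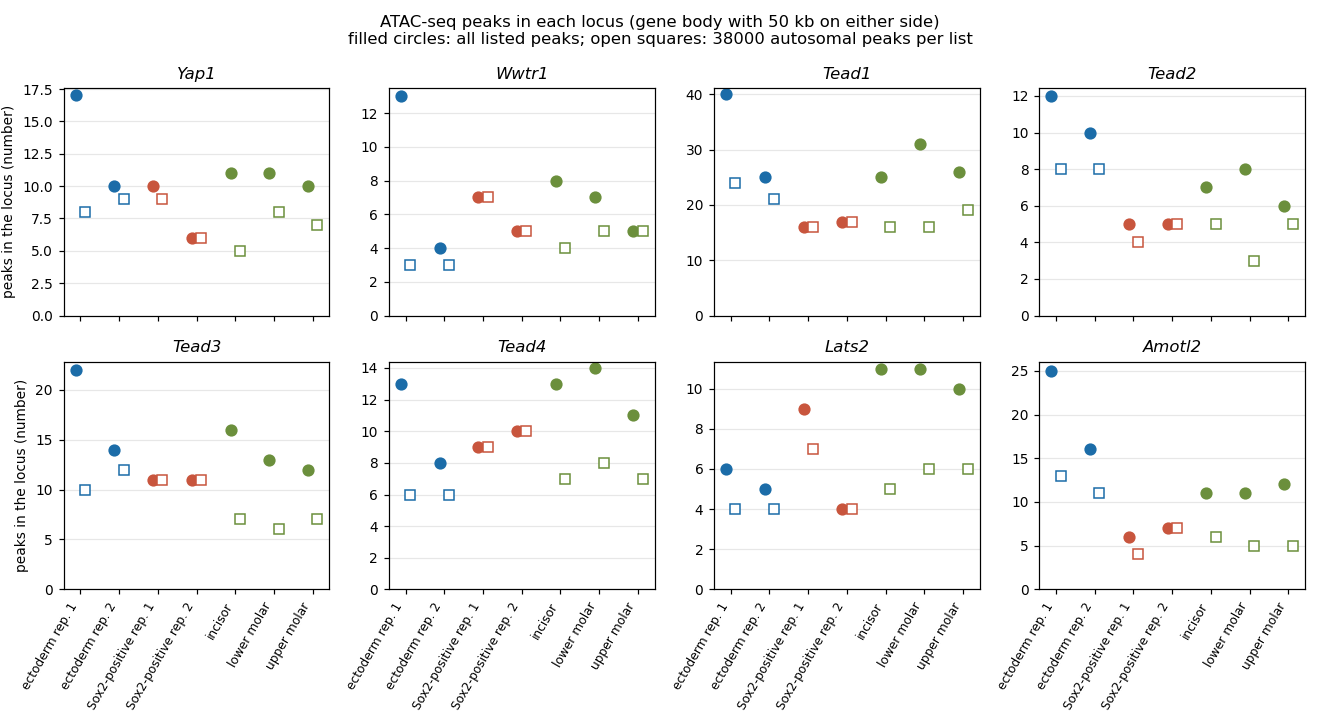
Number of peaks in each locus (vertical axis) in each library, for all listed peaks (filled circles) and for 38000 autosomal peaks per list (open squares). Amotl2 stands at 25 and 16 in ectoderm against 6 and 7 in Sox2-positive cells, and for Tead4 the groups overlap in the circles while both Sox2-positive squares lie above both ectoderm squares.

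Position by position, the lists of the 4 replicated libraries were merged into 172 regions over the 8 loci. Of these, 38 were open in each of the 4 libraries. Ectoderm regions, those open in both ectoderm replicates and in no Sox2-positive one, numbered 40, or 23.3% of member regions against 23.2% of all regions. Sox2-positive regions, of the reverse pattern, numbered 7, or 4.07% against 7.7%. The equal lists gave 23 of 119 (19.3% against 18.4%) and 11 of 119 (9.24% against 14.4%). The ectoderm share of the member loci was near the background, and the Sox2-positive share below it. Single libraries moved these counts along with the background. Without ectoderm replicate 2 the ectoderm regions numbered 89 (51.7% against 51.5%). The Sox2-positive regions numbered 11 without ectoderm replicate 1 (8.8% against 13.1%), 17 without Sox2-positive replicate 1 (10.5% against 15.1%) and 17 without replicate 2 (10.5% against 14.6%). Replicates agreed as elsewhere in the genome: the ectoderm libraries shared 60.3% of the regions that either had in these loci (59.6% over all regions), and the Sox2-positive libraries 58.3% (59%).

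By locus, the ectoderm regions numbered 12 of 45 merged regions at Tead1, 10 of 26 at Amotl2, 6 of 22 at Yap1 and 5 of 12 at Tead2. They numbered 3 of 22 at Tead3, 2 of 18 at Wwtr1, 2 of 17 at Tead4 and 0 of 10 at Lats2. None of the 40 lay within 1 kb of a member's start, 1 lay within 1 kb of another gene's start, and 15 lay in a gene body and 25 outside. Of the 40, 16 had a peak in lower molar (40% against 27.4% of all ectoderm regions), 15 in upper molar (37.5% against 28.3%) and 7 in incisor (17.5% against 13.2%). At least 1 tooth had a peak in 19 of the 40 (47.5% against 34.6%), and at equal length in 6 of 23 (26.1% against 18.4%). The 7 Sox2-positive regions were 2 each at Yap1, Wwtr1 and Tead4 and 1 at Amotl2, and 6 of them also had a peak in incisor (85.7% against 91.7% of all Sox2-positive regions). At equal length 6 of 11 did (54.5% against 78.6%).

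**Figure D3:**
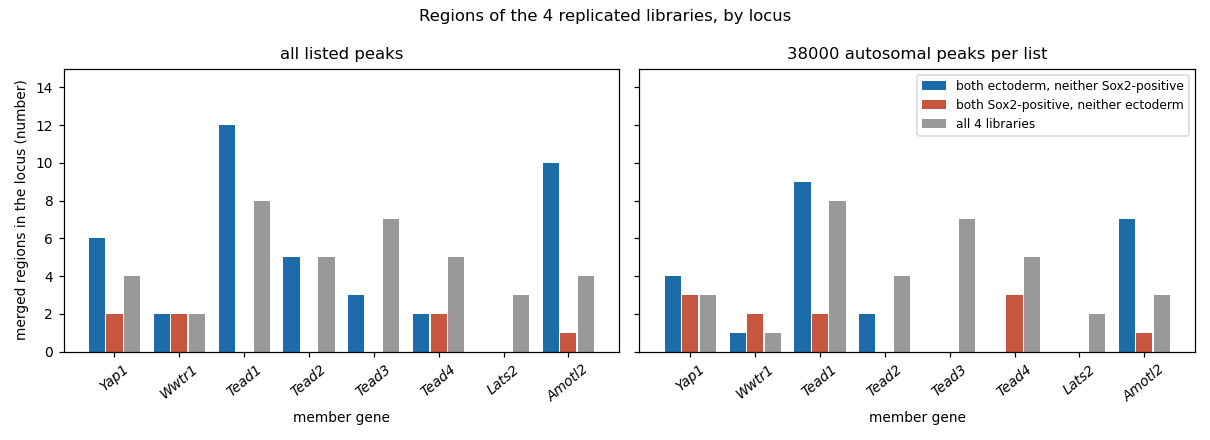
Number of merged regions in each locus (vertical axis) with a peak in both ectoderm and neither Sox2-positive library, in the reverse pattern, or in all 4 libraries, for all listed peaks (left) and 38000 peaks per list (right). Tead1 and Amotl2 hold 12 and 10 of the 40 ectoderm regions on the left, among 45 and 26 merged regions there. Lats2 holds none of either pattern.

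In the Tead1 gene, the 2 ectoderm regions with the highest rank lay deep inside the gene body. The region chr7:112841606-112842389 had a signal of 2387 and 2005 in ectoderm, 282 in lower molar and 300 in upper molar, and no peak in Sox2-positive cells or incisor. Signals are not normalized between libraries and full lists differ in length, so the ranks of regions given here and below are those within the equal lists. This region ranked 73% and 74.5% in ectoderm, and its molar peaks were not in the equal lists. The region chr7:112743197-112744318 ranked 76.9% and 64.7% in ectoderm and was in no other equal list, although all 3 teeth had a peak there in the full lists. By contrast, chr7:112825933-112826958, also in the gene body, had a peak in all 7 libraries and ranked 68.7% to 87.9%.

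At Amotl2, the ectoderm regions lay mostly on both sides of the gene. The region chr9:102689416-102690772, 27 kb upstream of the start, had a signal of 1942 and 1443 in ectoderm, 305 in lower molar and 371 in upper molar. It had no peak in the other 3 libraries, and in the equal lists it was present in ectoderm alone, at ranks of 63.8% and 64.2%. The region chr9:102763352-102764087, downstream of the gene, ranked 58% and 42.9% in ectoderm, 7.69% in incisor and 1.01% in lower molar, and its upper molar peak was in the full list only. The single Sox2-positive region, chr9:102731017-102731553, lay near the far end of the gene body and had a peak in all 5 postnatal full lists. In the equal lists it ranked 13.1% and 40.3% in the Sox2-positive cells, 49% in incisor and 4.11% in lower molar and was not in that of the upper molar. The region chr9:102725258-102727159 in the gene body was shared by all 7 libraries and ranked 76.4% to 89.8%.

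**Figure D4:**
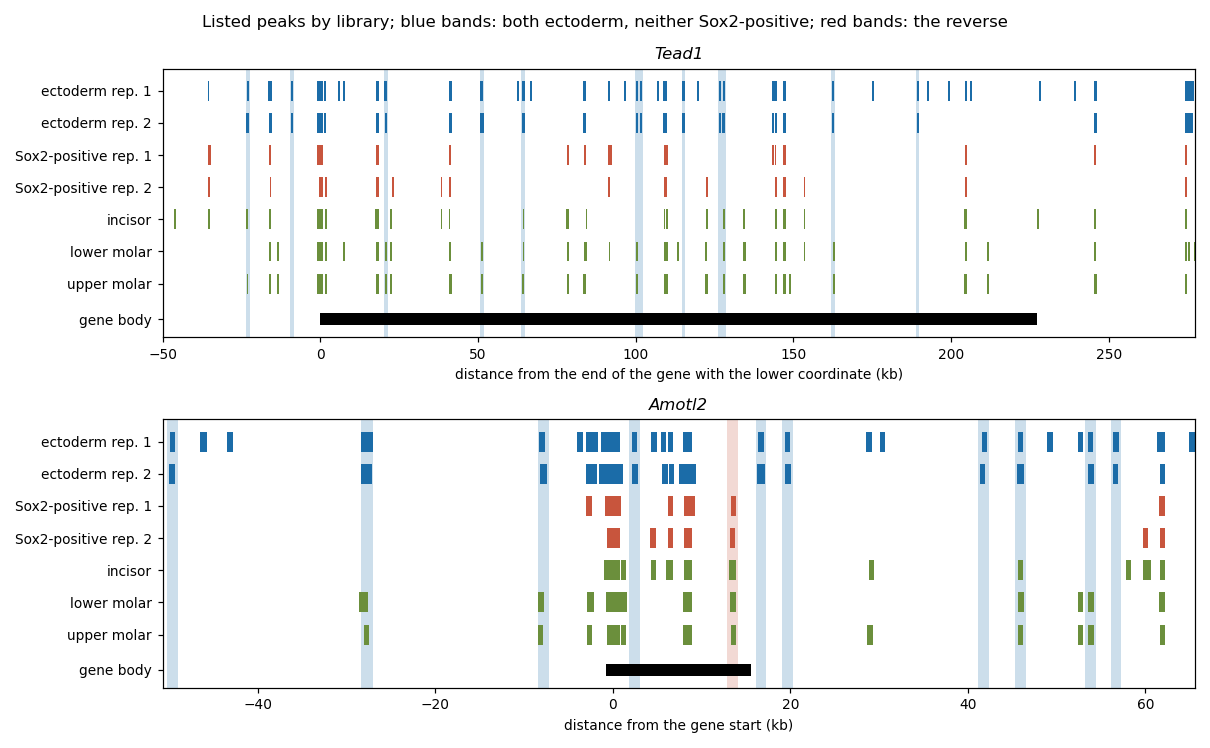
Listed peaks of the 7 libraries along the Tead1 and Amotl2 loci, by distance from the lower-coordinate end of Tead1 and from the Amotl2 start (kb), with the gene body as a black bar. Blue bands mark the 12 Tead1 and 10 Amotl2 regions with a peak in both ectoderm and neither Sox2-positive library, and the red band the 1 Amotl2 region of the reverse pattern.

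At Yap1, both Sox2-positive regions lay downstream of the gene. The region chr9:7903387-7904145 had a peak in the Sox2-positive libraries and in none of the other 5, with a signal of 851 and 594 and ranks of 65.1% and 52.2%. The region chr9:7926020-7926605 ranked 37.2% and 45% in Sox2-positive cells, and its incisor peak was in the full list only. Upstream, chr9:8005946-8006949, 1.35 kb from the start, had a peak in the ectoderm libraries alone, with signals of 827 and 707.

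Farther upstream of Yap1, 2 neighbouring regions had different patterns. The region chr9:8032778-8033596, 28.2 kb from the start, had a signal of 2233 and 1725 in ectoderm, 1087 in lower molar and 1104 in upper molar, and no peak in Sox2-positive cells or incisor. Its ranks were 70.1% and 69.8% in ectoderm, 50.8% in lower molar and 50.7% in upper molar. The region chr9:8034952-8036162, 30.4 kb from the start and singled out after its values were seen, had a peak in all 7 full lists. In the equal lists it had no ectoderm peak, and it ranked 92.8% and 79.7% in the Sox2-positive cells, 55.3% in incisor, 84.9% in lower molar and 88.1% in upper molar. The highest-ranking shared Yap1 region away from its own start, chr9:8042345-8043302, lies at the start of the neighbouring gene Cfap300.

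At Wwtr1 and Tead4, all 4 of the Sox2-positive regions had a peak in every postnatal library and in neither ectoderm library. They were chr3:57487422-57488215 in the Wwtr1 gene body, chr3:57625363-57625964 upstream of Wwtr1, and chr6:128345545-128346013 and chr6:128204718-128205450 on the 2 sides of Tead4. The upstream Wwtr1 region ranked 58.8% and 29.6% in the Sox2-positive cells, 59.4% in incisor, 58.6% in lower molar and 65.6% in upper molar. The first Tead4 region ranked 20.8% and 53.4% in Sox2-positive cells and 32.2% to 53.7% in the teeth. The highest-ranking shared region away from the Wwtr1 start, chr3:57470278-57471708, had a peak in all 7 full lists. In the equal lists it was absent from ectoderm replicate 1 and ranked 11.1% in ectoderm replicate 2, 60.5% and 26.9% in Sox2-positive cells and 63.9% to 78.4% in the teeth. That at Tead4, chr6:128199999-128201761, ranked 92.4% to 95.6% in all 7.

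**Figure D5:**
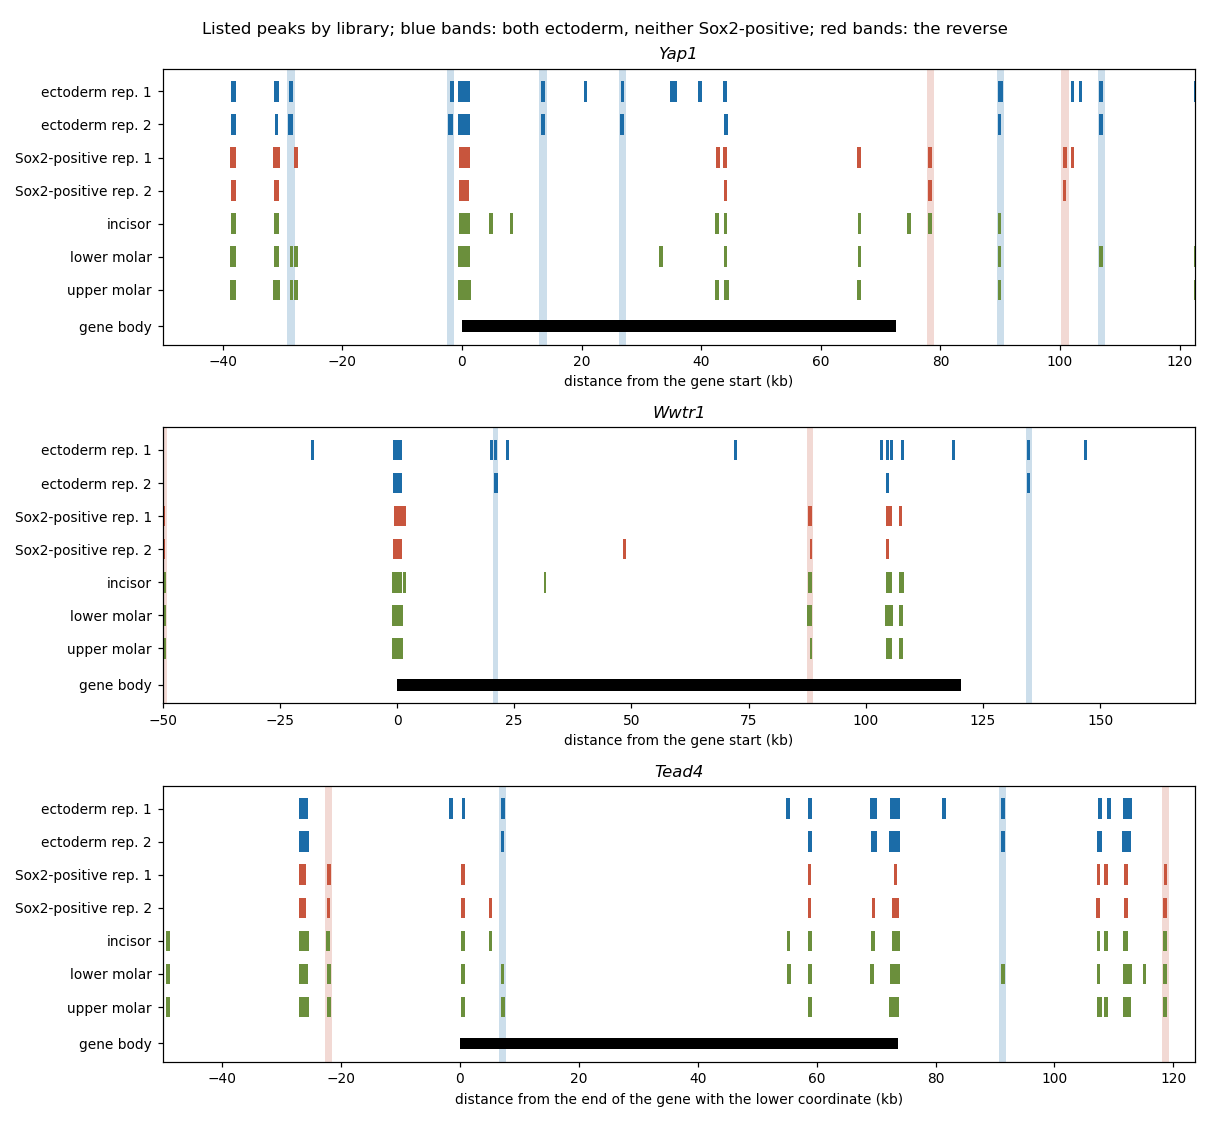
Listed peaks of the 7 libraries along the Yap1, Wwtr1 and Tead4 loci, by distance (kb) from the start of Yap1 and Wwtr1 and from the lower-coordinate end of Tead4, with the gene body as a black bar. Red bands mark the 2 Sox2-positive regions at each locus, and blue bands the ectoderm regions.

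Just beyond the end of Tead2, the region chr7:45233988-45236327 had a peak in all 7 libraries, with a signal of 4626 and 3646 in ectoderm, 965 and 1343 in the Sox2-positive cells, 1468 in incisor, 933 in lower molar and 986 in upper molar. It ranked 94.8% and 91.1% in ectoderm, 69.5% and 79% in the Sox2-positive cells, 67.9% in incisor, 42.9% in lower molar and 45% in upper molar. Next to it, chr7:45236796-45237457 had a peak in the ectoderm libraries alone, at ranks of 41.1% and 42.4%. The 3 ectoderm regions at Tead3 and the 2 at Tead4 were not in that pattern on the equal lists. The highest-ranking of those at Tead3, chr17:28358225-28359411, had signals of 1051 and 983 in ectoderm. The highest-ranking shared region of Tead3 outside its start, chr17:28327395-28334112, lies at the start of Rpl10a, a ribosomal protein gene. At Lats2, the shared region chr14:57664255-57665712 downstream of the gene ranked 74% to 83.1% in all 7 libraries, above the Lats2 start peak in 6 of them, the exception being incisor.

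Over all 7 lists, 37 of the 195 member regions (19%) had a peak in every library, against 14.3% of all regions. Of the 37, 24 lay over 1 kb from the starts used here for protein-coding genes. Regions open in each ectoderm library and without a peak in any postnatal one numbered 21 (10.8% against 11.8%). Regions with a peak in all 5 postnatal libraries and no ectoderm one numbered 5 (2.56% against 4.56%): 2 at Wwtr1, 2 at Tead4 and 1 at Amotl2. A pattern described after it was seen, a peak in both ectoderm and both molar libraries but in neither Sox2-positive cells nor incisor, held for 10 regions (5.13% against 2.36%), of which 4 were at Tead1, 3 at Amotl2 and 1 each at Yap1, Tead3 and Tead4. The corresponding equal-list counts were 29 of 128 (22.7% against 19.2%), 17 (13.3% against 12.8%), 5 (3.91% against 6.29%) and 2 (1.56% against 1.2%).

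The Sox2-positive cells were next set beside the whole lower incisor. Of 112 member regions in those 3 lists, 2 were open in each Sox2-positive library and not in incisor (1.79% against 1.86% of all regions), 1 each at Yap1 and Tead1. The reverse held for 30 regions (26.8% against 29.8%), with at least 2 at each member: 7 at Tead1, 5 at Tead3, 4 each at Yap1, Lats2 and Amotl2 and 2 each at Wwtr1, Tead2 and Tead4. In the equal lists the counts were 6 of 87 (6.9% against 7.1%) and 8 of 87 (9.2% against 12.2%). Both lay near or below the background. With only 1 Sox2-positive library used, the count in place of 2 was 5 without replicate 1 (4.72% against 4.37%) and 9 without replicate 2 (8.18% against 9.39%).

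Between the teeth, 24 of 129 member regions had a peak in incisor and in neither molar (18.6% against 13.8%), and 18 had one in both molars and not in incisor (14% against 17.9%). Of the molar regions 6 lay at Tead1, 5 at Amotl2 and 3 at Yap1. On the equal lists the counts were 11 of 75 (14.7% against 18.5%) and 12 of 75 (16% against 16.4%), so the incisor excess over background was not present there. The 2 molars shared 79.4% of the member regions that either had (77.4% over all regions). These comparisons rest on 1 library per tooth.

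Of 28 other Hippo genes, 24 had a start peak in all 7 libraries. Amot and Vgll1 lie on the X chromosome, so the 24 are among 26 autosomal genes, against 55.7% of autosomal protein-coding genes. These included all 18 kinases and adaptors, such as Nf2, Stk3 and Lats1. Amot, Vgll1 and Ankrd1 had none in any library. In the equal lists 23 of the 26 autosomal genes had one in all 7, against 51.4%. Among them were 17 of the 18 kinases and adaptors, with Sav1 lacking one in ectoderm replicate 1 and upper molar. On the full lists 10 of 28 had more locus peaks in both ectoderm than in both Sox2-positive libraries and 1 had fewer. The shares over 18497 genes were 46.2% and 3.43%, and the X-linked Amot was among the 10. On the equal lists, where 26 autosomal genes remained, 5 had more and 5 fewer, against 23.1% and 20.2%. The gene with fewer on the full lists was Amotl1, the paralogue of Amotl2, with 15 and 12 peaks in ectoderm, 20 and 18 in the Sox2-positive cells, 30 in incisor, 35 in lower molar and 29 in upper molar. Its order was thus opposite to that of Amotl2, and stayed so on the equal lists (9 and 11 against 18 in each). Vgll2, which encodes a TEAD cofactor, had 5 and 4 peaks in ectoderm, 0 in both Sox2-positive libraries and in incisor, and 1 in each molar. For all 4 targets the groups overlapped on the full lists, with 13 and 5 peaks in ectoderm against 5 and 6 in Sox2-positive cells for Ccn1 and 13 and 8 against 14 and 11 for Axl. At equal length these 2 of 4 had more peaks in Sox2-positive cells, against 20.2% of genes, with 4 and 2 against 5 and 6 for Ccn1 and 7 in each against 14 and 11 for Axl.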

How the data were processed

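Omni-ATAC-seq peak lists were deposited, 1 per library, for 7 mouse libraries. Per the submitters' processing notes, FastQC, Trimmomatic, Bowtie2, deepTools and Genrich were used with the build mm10 (GRCm38); versions and options are not given in the sources used here. The deposited signal of a peak is the caller's area under the significance curve, at least 200 in every list, and the deposited significance is a −log10 of the p-value. Neither is normalized between libraries by anything stated, so they only rank peaks within a list, and with depth unknown no count model was applied.

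Peaks lying in a gene body or within 50 kb of it were counted in Python 3.11.15, on the full lists and on 38000 autosomal peaks per list taken by −log10 p. Lists of a comparison were merged where peaks shared at least 1 bp, and 1 bp under a peak counted as present. Coordinates are 1-based. Gene bodies and starts came from RefSeq (GRCm38.p6), with a start peak within 1 kb. A group had a region only if both replicates did. The code was tested on simulated lists.

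Named regions were the gene-start region, the highest-ranking region outside the start with a peak in all 7 lists, and up to 2 regions per direction with the highest mean signal rank in 1 replicated group and no peak in the other. The members and lists were chosen with earlier results of these data known. The start-rank comparison and the pattern of ectoderm with molars were added after seeing the data. Alternatives were equal lists by signal, the better 50% of each list by p-value, 50% coverage, 200 bp summit windows, flanks of 25 kb or none, start distances of 500 bp and 2.5 kb, and leaving out each replicate.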

Additional observations from a re-analysis of the deposited data

How the results depend on the processing

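Of 172 alternative values, 103 stayed within 1.5 times the main count or 1 SD of the main difference. Another 60 moved and 9 reversed in sign. The start-peak count of 8 was among those kept. So was the mean difference taken within replicate number, which equals the main one by construction. The main values were 7 Sox2-positive and 40 ectoderm regions, 2 Sox2-positive and 30 incisor regions, 24 incisor and 18 molar regions, 37 shared regions and a mean difference of 6.38 peaks per locus between ectoderm and Sox2-positive cells. With 38000 peaks per list by −log10 p the moved values were, in that order, 11, 23, 6, 8 and 11 (incisor, not molars) and a mean difference of 1.12. By signal they were 11, 26, 7 and 7, and again 1.12; Tead3 then reversed to −1 peaks, from 7. On both equal lists Wwtr1 reversed to −3, from 2.5, and Tead4 to −3.5, from 1. With the 50% of each list of smallest p the moved values were 1, 21, 0, 14, 9, 11 and 20 shared regions, and Lats2 reversed to 2, from −1. With 50% of a region covered, Sox2-positive regions absent from incisor numbered 1 and shared regions 15. With 25 kb on either side, Sox2-positive regions numbered 4 against ectoderm and 1 against incisor. In gene bodies alone the values were 2, 15, 1, 12, 11, 8, 21 and a difference of 2.5. Apart from the equal lists by −log10 p, no share over all regions was taken for these settings. Their counts therefore do not show whether the member loci moved more than other regions. Fewer peaks enter on the shortened lists and less sequence with narrower flanks, while 50% coverage sets a stricter rule for presence. Why values moved was not tested.

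Leaving out 1 replicate at a time gave 7 to 17 Sox2-positive and 42 to 89 ectoderm regions, 5 to 9 Sox2-positive regions absent from incisor, and a mean difference of 2.88 to 9.88. The Wwtr1 difference then ranged from −2 to 7, that of Tead4 from −1.5 to 3.5 and that of Lats2 from −3.5 to 1.5; the sign turned without ectoderm replicate 1 for Wwtr1 and Tead4 and without Sox2-positive replicate 1 for Lats2. Members with a start peak ranked higher in ectoderm numbered 3, then 5 in the full lists, 1 by −log10 p and 3 to 5 without 1 replicate. Only the main count of 3 has a share over all genes beside it (29.2%). Amotl2 and Tead1 had more ectoderm peaks in 10 of 10 alternatives, Yap1 and Tead2 in 9 with 1 tie each, Tead3 in 8 with 1 tie, Wwtr1 in 7, Tead4 in 6 and Lats2 in 2. Most of these alternatives keep the longer ectoderm lists. On the equal lists by −log10 p and by signal the differences were 6.5 and 8.5 for Amotl2, and 6 and 7 for Tead1. They were 3.5 and 2.5 for Tead2, 1 and 0 for Yap1 and 0 and −1 for Tead3. A replicate block, that is, differences within replicate number, gives the same mean of 6.38 by construction, so it is no check of that value. The 2 pairs differed by 9.38 and 3.38 (two-sided exact sign-flip permutation p = 0.5, the smallest that 2 pairs allow). Nothing in the labels ties equal numbers together, and the replicate differences of the 2 groups hardly correlated over 18000 genes (r = −0.03, across genes). Unknown depth limits every count: a missing peak shows only that none was listed.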

Other observations

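Peak density at most member loci lay above the median of all genes. Per 100 kb of locus, the median over the 8 members was 10 and 6.71 peaks in ectoderm, against 5.01 and 3.42 for all autosomal protein-coding genes. In Sox2-positive cells it was 5.17 and 4.72 against 2.83 and 2.57, in incisor 7.26 against 3.85, in lower molar 7.54 against 4.36 and in upper molar 6.36 against 4.22. Between 6 and 8 of the 8 members lay above the median of all genes in each library. These are descriptions of chosen genes and carry no test.

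Genes whose peak numbers over the 7 equal lists ran most like those of a member were found among genes of similar locus length and mean peak number. The closest outside the member's own locus were LTO1 for Yap1 (Pearson r = 0.977), Elovl6 for Wwtr1 (0.977), Fto for Tead1 (0.928), Celf6 for Tead2 (0.988), Dennd6b for Tead3 (0.988), Cnn3 for Tead4 (0.984), Tmtc4 for Lats2 (0.992) and Dtx2 for Amotl2 (0.982). Each is the top of 143 to 6395 candidates over 7 libraries of unknown depth that differ in tissue, so high values arise readily and no p is given. Dtx2 held 10 and 9 peaks in ectoderm, 3 and 5 in Sox2-positive cells and 4 to 5 in the teeth. Cnn3 held 8 and 7 in ectoderm and 14 and 16 in Sox2-positive cells.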
